A study of Mus musculus with 2 samples.

Results

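The 8 genes described here encode neurotrophin and GDNF family ligands and receptors: the receptors Ntrk2 (TrkB), Ntrk3 (TrkC), Ngfr (p75NTR), Gfra1 and Gfra2, and the ligands Bdnf, Ntf3 and Gdnf. They were chosen by name, as the gene identifiers that a mouse GENCODE annotation pairs with those symbols, and all 8 of the 43346 genes in the deposited tables were found. The series measured total RNA of midbrain from healthy B6NCrl mouse embryos at 11.5 days, untreated and of mixed sex, in 2 libraries that each came from a separate pool of embryos. The pool of replicate 1 held 109 embryos and that of replicate 2 held 88, and 10 ng of RNA above 200 nt, with ERCC spike-ins, went into each library. There was 1 group and no contrast between conditions, so the comparisons below are between genes, between transcripts of a gene and between the 2 pools. The tissue was a mixture of cell types, and in such bulk samples fewer cells of a type and less RNA per cell cannot be told apart.

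Neurotrophins are secreted growth factors that bind Trk receptor tyrosine kinases and, at lower selectivity, p75NTR, a death-domain receptor without a kinase. BDNF is the ligand best known for TrkB, and NT-3, the product of Ntf3, for TrkC. GDNF family ligands instead bind a GPI-anchored co-receptor, GFRα1 for GDNF and GFRα2 for neurturin, and the complex signals through the Ret kinase or NCAM. Both Ntrk2 and Ntrk3 also make truncated receptors that keep the extracellular and transmembrane parts but lack the kinase. In the midbrain, BDNF and GDNF are known chiefly as survival factors for dopaminergic neurons.

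Midbrain identity genes were present, with all 7 of 7 listed at 1 TPM or more in both libraries, led by Otx2 at 170 ± 1.30 TPM (SD, n = 2), Pax3 at 30.5 ± 1.65 TPM and Wnt1 at 9.83 ± 1.38 TPM. TPM is a level corrected for transcript length and scaled to the same total in each library, so it can be compared between genes. The libraries held 38884247 and 45975100 expected counts on genes, an expected count being an estimated number of reads. All 10 neuron markers and all 8 neural progenitor markers reached 1 TPM in both libraries. Markers of other tissues were present as well, apart from most of those of skeletal muscle. All 10 mesenchyme and meninges markers, 6 of 6 endothelial, 5 of 5 mural and 6 of 6 erythroid markers reached 1 TPM in both libraries. Of 6 skeletal muscle markers 2 did, and the median of that list was 0.42 TPM. Of all protein-coding genes, 58.2% did. The part of those cells in the levels below was not tested.

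The receptors led the set. Gfra1 had 21.7 TPM in replicate 1 and 20.5 TPM in replicate 2, Ntrk2 13.7 and 12.2 TPM, and Ngfr 10.9 and 11.2 TPM. Ntrk3 and Gfra2 were lower, and of the 3 ligands Ntf3 was at the level of Ntrk3 whereas Bdnf and Gdnf lay near or below 1 TPM. The 5 receptors summed to 50.8 TPM in replicate 1 and 48.3 TPM in replicate 2, and the 3 ligands to 4.71 and 4.44 TPM. Of the 8 genes, 6 reached 1 TPM in both libraries, against 32.1% of all genes and 58.2% of protein-coding genes.

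**Figure D1:**
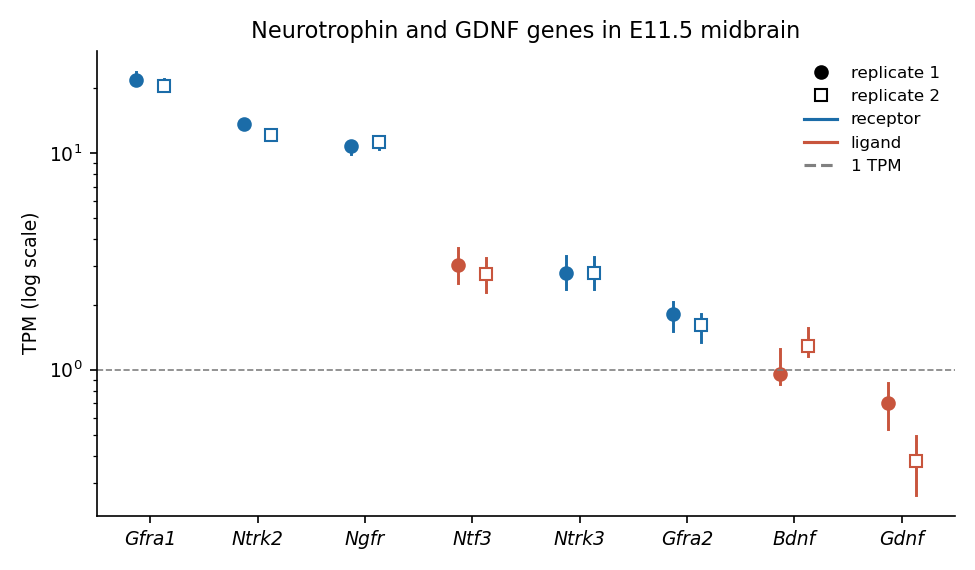
Level of each of the 8 genes in TPM (log axis), with 1 filled circle for replicate 1 and 1 open square for replicate 2, receptors in blue, ligands in red, and vertical lines for the deposited interval of each value. Gfra1, Ntrk2 and Ngfr lie between 10.9 and 21.7 TPM, and Gdnf lies below the dashed line at 1 TPM in both libraries.

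The central result concerned the forms of the Trk receptor transcripts. Ntrk2 lies on chromosome 13 (chr13:58806569-59133970, mm10, plus strand). Its full-length transcript Ntrk2-201 and its truncated transcript Ntrk2-202 share 1393 coding bases over 11 coding exons and then part at a splice donor. The sequences that tell them apart are shown 5′ to 3′ as in the GENCODE M21 transcripts, with the last 24 shared coding bases in lower case and the bases after the shared splice donor in capitals.
Ntrk2-201: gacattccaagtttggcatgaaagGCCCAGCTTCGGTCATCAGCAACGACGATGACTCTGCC
Ntrk2-202: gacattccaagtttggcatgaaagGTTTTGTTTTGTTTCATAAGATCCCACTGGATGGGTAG
The capitals of Ntrk2-201 lie at chr13:58985802-58985839 and open 1073 coding bases of its own, over 6 exons, that encode the kinase. The capitals of Ntrk2-202 lie upstream, at chr13:58932023-58932060, and are its whole remaining coding sequence, which ends in the stop codon after 38 bases. The translated full-length transcript has 821 codons and holds the kinase signature letters HRD at codon 673 and DFG at codon 693. The truncated transcript has 476 codons and holds neither.

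Ntrk3 lies on chromosome 7 (chr7:78175959-78738012, mm10, minus strand). The full-length Ntrk3-201 and the truncated Ntrk3-202 share 1585 coding bases over 12 coding exons, and are shown in the same way.
Ntrk3-201: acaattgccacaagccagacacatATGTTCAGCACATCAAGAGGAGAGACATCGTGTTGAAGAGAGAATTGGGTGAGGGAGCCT
Ntrk3-202: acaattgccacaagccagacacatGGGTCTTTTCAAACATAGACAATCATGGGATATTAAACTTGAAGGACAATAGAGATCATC
The capitals lie at chr7:78260355-78260414 for the full-length transcript, which has 893 coding bases of its own over 5 exons, and at chr7:78304367-78304426 for the truncated one, which has 254 over 2 exons. Ntrk3-201 has 825 codons, with HRD at codon 677 and DFG at codon 697, and the 612 codons of Ntrk3-202 hold neither. A further pair of full-length transcripts carries added exons within the kinase, shown next in capitals with 12 flanking bases on each side in lower case.
Ntrk3-205 insert: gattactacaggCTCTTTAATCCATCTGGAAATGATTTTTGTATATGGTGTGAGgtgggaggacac
Ntrk3-206 added exon: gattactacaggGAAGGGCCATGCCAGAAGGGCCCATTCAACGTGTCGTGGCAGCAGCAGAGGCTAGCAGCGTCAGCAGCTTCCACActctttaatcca
The insert of Ntrk3-205 is a 42-base exon at chr7:78204103-78204144 that adds 14 codons from codon 712, after DFG. Ntrk3-206 has that insert and, before it, a 75-base exon of 25 codons at chr7:78229487-78229561. Kinase inserts at this place are known to alter TrkC signalling.

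**Figure D2:**
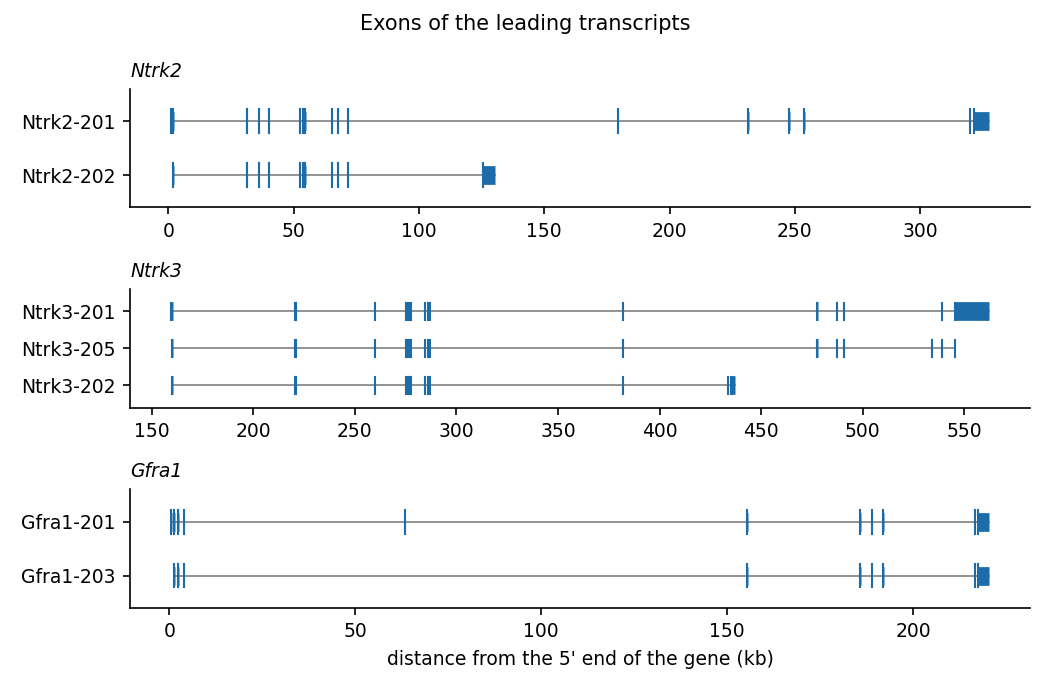
Exons (blue blocks) and introns (grey lines) of the leading transcripts of Ntrk2, Ntrk3 and Gfra1 in the GENCODE M21 annotation, to scale, against the distance in kb from the annotated 5′ end of each gene. The truncated Ntrk2-202 and Ntrk3-202 end in exons that lie inside an intron of the full-length transcripts, and Gfra1-203 lacks 1 internal exon of Gfra1-201.

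For Ntrk2, the truncated transcript made up most of the gene's level. Ntrk2-202 had 12.03 TPM in replicate 1 and 10.9 TPM in replicate 2, with deposited intervals of 11.3 to 12.3 and 10.3 to 11.2 TPM. Ntrk2-201 had 1.66 and 1.21 TPM, with intervals of 1.42 to 1.86 and 1.01 to 1.37 TPM. The intervals of both forms were far apart in both libraries. The truncated form was 7.25-fold above the full-length form in replicate 1 and 9.05-fold in replicate 2, a mean of 8.15 ± 1.27 (SD, n = 2). As a share of the gene's transcripts (IsoPct in the deposited tables), the full-length form made up 12.1% in replicate 1 and 9.93% in replicate 2, a mean of 11.0 ± 1.549%. The expected counts behind these levels were 375 and 326 for Ntrk2-201 and 2223 and 2420 for Ntrk2-202. Each form has a long stretch to tell it apart, with 7007 reference bases in no other listed transcript of the gene for Ntrk2-201 and 5109 for Ntrk2-202. The last exon of Ntrk2-202 lies within an intron of the full-length transcript, and in total RNA the reads of unspliced Ntrk2 RNA over that exon cannot be told apart from those of the truncated transcript.

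For Ntrk3, the estimated proportions were the other way round, but single transcripts were not separated. The full-length transcripts together had 1.76 TPM in replicate 1 and 1.72 TPM in replicate 2, a mean of 1.74 ± 0.028 (SD, n = 2), and Ntrk3-202 had 0.58 and 0.46 TPM. Full-length transcripts made up 63.2% and 61.5% of the gene, a mean of 62.3 ± 1.18%, and the truncated one 20.7% and 16.3%, a mean of 18.5 ± 3.15%. The rest, 16.1% and 22.2%, went to Ntrk3-203, a transcript annotated without a coding sequence. Summed full-length TPM was 3.03-fold above truncated TPM in replicate 1 and 3.74-fold in replicate 2. These shares rested on fewer reads than those of Ntrk2, with 34.7 and 32.7 expected counts on Ntrk3-202. The intervals of Ntrk3-202, 0.238 to 0.932 and 0.169 to 0.801 TPM, overlapped those of each full-length Ntrk3 transcript in both libraries.

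The single full-length transcripts of Ntrk3 were less well resolved. The insert-bearing Ntrk3-205 had 1.00 and 1.29 TPM, with intervals of 0.298 to 1.38 and 0.277 to 1.45 TPM. Ntrk3-201, without the insert, had 0.60 and 0.43 TPM, with intervals of 0.283 to 0.891 and 0.196 to 0.743 TPM. These intervals overlapped in both libraries, and Ntrk3-205 has 0 bases that no other transcript of the gene shares. Ntrk3-206 had 0.16 TPM in replicate 1 and was listed at 0 in replicate 2, or 5.61% and 0% of the gene. In posterior mean form its share was 11.9% and 12.7%, so its level was not resolved. Transcripts with an insert made up 65.9% and 75% of full-length Ntrk3 TPM, a mean of 70.5 ± 6.43%. The transcript models quantified differed in length from those of GENCODE M21 on both sides of these shares. Ntrk3-201 had 3300 bases against 19703 and Ntrk3-202 had 2337 against 3977, whereas for Ntrk2 the lengths were closer, 8541 against 8744 for Ntrk2-201 and 7002 against 6846 for Ntrk2-202. The effect on the shares was not tested.

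**Figure D3:**
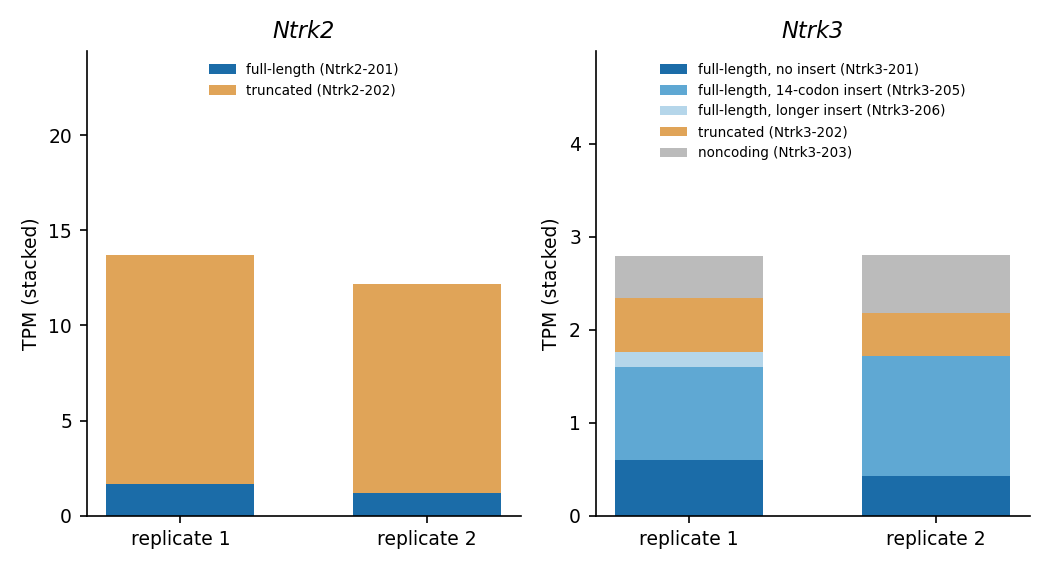
Stacked TPM of the transcripts of Ntrk2 (left) and Ntrk3 (right) in each library, each panel on its own axis from 0, with colours for full-length, truncated and other transcripts. The truncated Ntrk2-202 fills 87.9% and 90.1% of the Ntrk2 bars, and full-length transcripts fill 63.2% and 61.5% of the Ntrk3 bars.

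At the gene level Ntrk2 stood 4.50 ± 0.387-fold above Ntrk3 (SD, n = 2, on TPM + 0.1), with 13.7 and 12.2 TPM against 2.79 and 2.80 TPM. Counting only full-length transcripts, the genes were close to each other. Full-length Ntrk3 was 1.06-fold above full-length Ntrk2 in replicate 1 and 1.42-fold in replicate 2, a mean of 1.24 ± 0.255. The intervals are per transcript and not for sums, so that difference has only the spread of the 2 libraries, and a ratio of 1 lies within 1 SD of the mean. Truncated Ntrk2 was 20.7-fold and 23.8-fold above truncated Ntrk3. The gene-level excess of Ntrk2 was thus carried by the reads assigned to Ntrk2-202, from which reads of unspliced Ntrk2 RNA cannot be told apart.

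Ngfr (chr11:95568818-95587735, minus strand) encodes p75NTR, the receptor shared by all neurotrophins. It had 10.9 TPM in replicate 1 and 11.2 TPM in replicate 2, on 972 and 1205 expected counts, with intervals of 9.96 to 11.3 and 10.4 to 11.7 TPM that overlapped. Its level was 3.85 ± 0.086-fold that of Ntrk3. Against Ntrk2 the ratio was close to even: Ntrk2 was 1.17-fold above Ngfr on average, and their intervals were apart in replicate 1 only. Neural crest and sensory neurons also express Ngfr. Of 11 measured markers of those cells, 5 reached 1 TPM in both libraries, against 58.2% of protein-coding genes. They were led by Pou4f1 at 39.1 TPM and Isl1 at 13.005 TPM, both of which midbrain neurons can express too. The crest markers Sox10, with 0.73 and 0.49 TPM, and Foxd3, with 0.08 and 0.04 TPM, were low. The list summed to 76.9 and 73.7 TPM, and its part in the Ngfr level was not tested.

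Gfra1 (chr19:58235604-58455909, minus strand) encodes the GDNF-binding co-receptor and was the highest of the 8 genes. Its counts were 2349 and 2687, its intervals 20.9 to 23.8 and 19.7 to 22.02 TPM, and its level exceeded that of 73.3% and 72.4% of protein-coding genes. Most of it came from a pair of full-length transcripts whose coding sequences differ by a short exon, shown in capitals with 12 flanking bases on each side.
Gfra1-201 exon: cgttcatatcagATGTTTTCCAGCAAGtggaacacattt
The exon spans 15 bases, or 5 codons, at chr19:58392573-58392587. Gfra1-201, with the exon, had 11.9 and 10.6 TPM, or 55.0% and 51.8% of the gene. Gfra1-203, without it, had 7.38 and 7.95 TPM, or 34.0% and 38.7%. Their intervals, 8.63 to 13.4 against 5.32 to 10.2 TPM in replicate 1 and 8.04 to 11.9 against 6.03 to 10.1 TPM in replicate 2, overlapped, so neither form was separated from the other. The antisense gene Gm16277 overlaps the 3′ end of Gfra1 and had 63.2 and 100.2 counts, and the sources used here do not say whether reads were counted by strand.

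Gfra2 (chr14:70890120-70979838, plus strand), the neurturin co-receptor, had 1.81 and 1.60 TPM, on 163 and 172 counts, with overlapping intervals of 1.52 to 2.06 and 1.34 to 1.81 TPM. Gfra1 was 11.8 ± 0.514-fold above it, and the intervals of the 2 co-receptors were apart in both libraries. Ntrk3, at 176 and 199 counts, was 1.61 ± 0.136-fold above Gfra2 and likewise apart in both.

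Among the ligands, Ntf3 (chr6:126101412-126166910, minus strand), which encodes NT-3, was highest, with 3.06 TPM in replicate 1 and 2.78 TPM in replicate 2. It rested on 105 and 116 counts, with intervals of 2.51 to 3.66 and 2.28 to 3.29 TPM. Its level was not separated from that of its receptor gene Ntrk3 in either library, with a mean ratio of 1.04. Ntf3-202 supplied 59.5% and 76.2% of Ntf3 and Ntf3-201 the rest, and the intervals of those transcripts overlapped.

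Bdnf (chr2:109674700-109727007, plus strand) had 0.95 TPM in replicate 1 and 1.28 TPM in replicate 2, a mean of 1.11 ± 0.233 (SD, n = 2), on 99 and 159 counts. Its intervals, 0.854 to 1.24 and 1.15 to 1.56 TPM, overlapped. Its main receptor gene Ntrk2 was 11.0 ± 3.01-fold higher on TPM + 0.1, which became 6.65-fold on TPM + 1. Ntf3 was 2.55 ± 0.652-fold above Bdnf. Bdnf is transcribed from many promoters that each splice an own 5′ exon to a shared coding exon, and the tables list 11 transcripts. The deposited share of the leading one, Bdnf-205, was 91.5% and 81.6% in the maximum likelihood form but 48.7% and 49.2% in the posterior mean form, so promoter use was not resolved at this depth.

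Gdnf (chr15:7810846-7837575, plus strand), which encodes the founding ligand of its family, was lowest, with 0.70 TPM on 64 counts in replicate 1 and 0.38 TPM on 41 counts in replicate 2. Its receptor gene Gfra1 was 35.1 ± 11.1-fold higher on TPM + 0.1. That ratio depends on the added constant, and on TPM + 1 it was 14.5-fold. Ntf3 was 4.97 ± 1.45-fold and Gfra2 2.96 ± 0.816-fold above Gdnf, both apart in both libraries.

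The order of the mean levels was therefore Gfra1, Ntrk2, Ngfr, Ntf3, Ntrk3, Gfra2, Bdnf and Gdnf. Of the 28 pairs of these genes, 24 had intervals apart in the same direction in both libraries, against 90.6% of all pairs of protein-coding genes. The 4 pairs that did not were neighbours in the order: Ntrk2 and Ngfr, Ntf3 and Ntrk3, Gfra2 and Bdnf, and Bdnf and Gdnf. Gfra2 and Bdnf were apart in replicate 1 only, and Bdnf and Gdnf in replicate 2 only.

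The 2 pools were then compared gene by gene, by a two-sided exact binomial test on counts scaled by TMM, with Benjamini-Hochberg adjustment over 17148 genes. The test compares 2 libraries, not conditions, and a gene was called at an adjusted p under 0.05 with at least a 2-fold difference. None of the 8 genes was called (0 of 8), against 2.94% of the genes tested. Without the minimum fold 2 of the 8 passed, Ntrk2 and Gdnf, against 6090 of the 17148 genes tested. Gdnf was lower in replicate 2, with a log2 ratio of -0.87 and an adjusted exact binomial p of 0.00894, and Ntrk2 was lower in replicate 2 with a log2 ratio of -0.17 and an adjusted exact binomial p of 1.60e-04. These were also the 2 of 8 genes whose deposited TPM intervals were apart between the libraries, against 20.0% of the genes tested. Bdnf went the other way, with a log2 ratio of 0.43 and an adjusted exact binomial p of 0.0566. For the remaining 5 genes the log2 ratios ran from -0.17 for Gfra2 to 0.06 for Ngfr, and none passed.

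**Figure D4:**
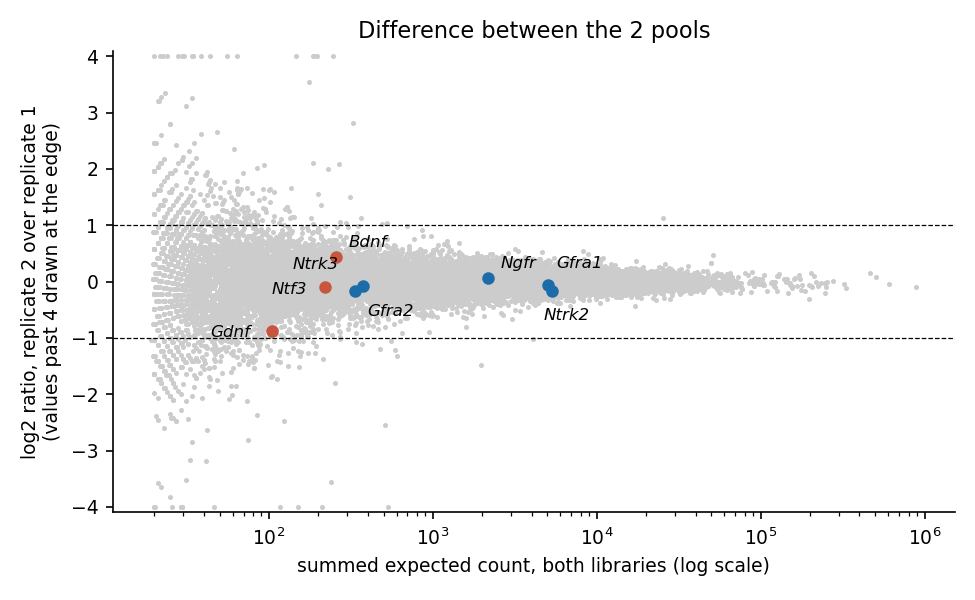
Log2 ratio of replicate 2 over replicate 1 against the summed expected count (log axis) for the 17148 genes tested (grey), with receptors in blue and ligands in red, dashed lines at 2-fold, and ratios past 4 drawn at the edge of the plot. All 8 genes lie within the dashed lines, with Gdnf at -0.87 and Bdnf at 0.43.

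The other genes of these pathways were read from 6 lists holding 75 measured genes. Of these, 62 reached 1 TPM in both libraries, against 58.2% of protein-coding genes. Between the pools, 1 of the 69 tested was called, against 2.94% of all genes tested, and 17 of the 69 had deposited intervals apart, against 20.0%. Of the 8 other neurotrophin ligands and receptors, 6 reached 1 TPM in both libraries. The sorting receptor Sort1 had 24.1 ± 0.368 TPM, and the related sorting receptor gene Sorcs2 had 5.37 ± 0.325 TPM. Ntf5, which encodes NT-4, had 9 and 20 counts.

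Of the 9 other GDNF family genes, 4 reached 1 TPM in both libraries, against 58.2% of protein-coding genes. Ncam1, the alternative signalling partner of GFRα1, had 72.2 ± 1.59 TPM. Ret, the kinase that GFRα receptors share, had 1.26 TPM in replicate 1 and 0.81 TPM in replicate 2, on 228 and 182 counts and with intervals apart between the pools. Its log2 ratio was -0.57, with an adjusted exact binomial p of 4.36e-04 and under the 2-fold minimum. Nrtn, which encodes the GFRα2 ligand neurturin, had 5.66 and 7 TPM and so stood above Gdnf, at 0.70 and 0.38 TPM. The co-receptor gene Gfra4 had 2.26 and 1.60 TPM, on 76 and 70 counts. Artn, Pspn, Gfra3 and Gfral, which encode further ligands and co-receptors, had between 0 and 21 counts in each library.

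Of 8 genes listed for pro-neurotrophin processing, 4 reached 1 TPM in both libraries, against 58.2% of protein-coding genes. Plat, which encodes tissue plasminogen activator, was highest at 49.8 TPM. Among the convertase genes, Pcsk7 had 7.55 and 9.65 TPM, Pcsk5 4.38 and 4.34 TPM, Furin 2.11 ± 0.0071 TPM and Pcsk6 0.53 and 0.66 TPM. Plg, the substrate of tissue plasminogen activator, had 3 and 0 counts, and Mmp3 and Mmp7 had 0 counts in both libraries, where 3 counts would be 0.0772 and 0.0653 CPM (counts scaled to the library's total). The intracellular lists were nearly complete: 24 of 26 Trk and Ret adaptors and effectors reached 1 TPM in both libraries, with a median of 10.2 TPM, and Dok6 and Shc4 fell short. All 12 of 12 p75NTR adaptors and co-receptors did, led by Maged1 at 585 ± 24.3 TPM and Bex3 at 515.5 ± 1.05 TPM, and all 12 of 12 feedback genes, led by the receptor phosphatase gene Ptprs at 74.2 ± 3.91 TPM.

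**Figure D5:**
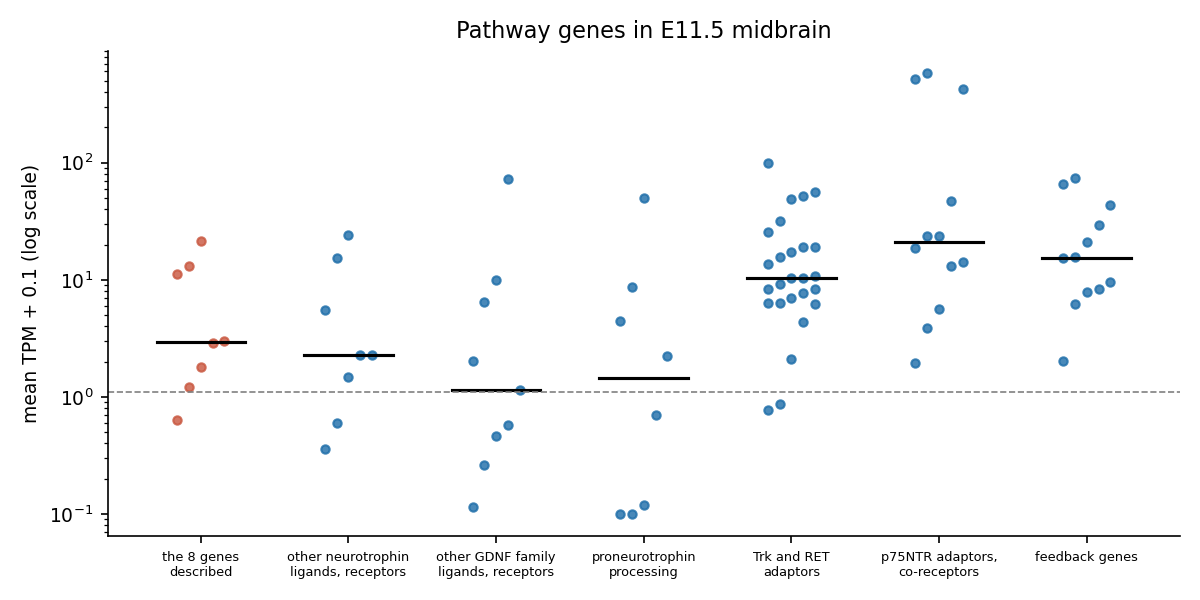
Mean TPM + 0.1 over the 2 libraries (log axis) for the 8 genes (red) and the 6 lists of other pathway genes (blue), with 1 point per gene and a black bar at each median; the dashed line marks 1 TPM. The 8 genes have a median of 2.86 TPM, below the 10.2 to 21.1 TPM of the adaptor and feedback lists and above the other ligand and receptor lists.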

How the data were processed

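Total RNA-seq of 2 libraries, each from a separate embryo pool, was analysed. The accompanying notes name assembly mm10 and annotation M4. The names of the aligner and quantifier and the strand setting were not given in the sources used here. Gene and transcript tables hold an expected count, a TPM and an FPKM made by the authors, per the file headers, in maximum likelihood form (printed here) and posterior mean form. The bounds of the TPM interval were deposited as a signal around the posterior mean, with no level given, and over 13895 genes at 1 TPM in both libraries the printed TPM lay outside its interval for 654 in replicate 1 and 481 in replicate 2. Each transcript's share of its gene was deposited as a percent (IsoPct).

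Symbols, transcripts and mm10 coordinates (1-based) came from GENCODE M21, which matched 42462 of 43346 genes. It lists more transcripts than were quantified for some genes: 2 of 10 for Ntrk2, 6 of 20 for Ntrk3, 1 of 3 for Gfra2 and 2 of 3 for Ntf3 were in the tables. Sequences were cut from the GENCODE transcripts. Entries for 96 spike-ins and phiX, and 26248 entries named by bare numbers (4.44 and 13.25 counts in all), were left out of tests. The spike-ins took 6.89% and 6.66% of counts, and as TPM was scaled over every row they took 15.2% and 14.8% of TPM.

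Genes and lists were chosen with earlier results of these data known. The text may name the 8 genes, any gene of the 6 pathway lists, the 3 highest of each marker list and defining markers near 0. 1 listed marker, Drgx, had no match, and some genes that this rule takes are left out of the text. With 2 libraries, no gene was sought for a pattern like that of another.

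Detection meant 1 TPM in both libraries, and 2 genes were called apart where both libraries had separate deposited intervals in the same order. Between pools, expected counts were rounded to whole numbers and tested by an exact binomial test against TMM-scaled sizes (edgeR 4.0.16, R 4.3.3) for genes with a summed count of 20 or more. With 1 library on each side no quasi-likelihood fit was possible. DESeq2 1.42.0 gave alternative size factors. Other steps used Python 3.11.15 with pandas 2.3.3, scipy 1.17.1, numpy 2.4.6 and, for plots, matplotlib 3.10.9, and the scripts were tested on simulated data. Reads without molecular identifiers are not independent molecules, so intervals and limits cover counting error only.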

Additional observations from a re-analysis of the deposited data

How the results depend on the processing

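With 2 libraries, the SD rests on 2 values, and no p over libraries can be had. Leaving 1 library out returns the result of the other library alone, so it is no separate check. No paired analysis was possible because there is 1 group.

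The median level of the 8 genes, 2.86 TPM, was 1.84 in FPKM and 3.36 in TPM rescaled without spike-ins, and 2.79 to 2.92 TPM with either library left out. The count of genes at 1 TPM, 6, was 6 or 7 with either library left out, and the 24 separated pairs were 25 to 26. Of 84 alternative folds between genes 29 moved past 1 SD and 0 reversed, and of 40 alternative levels 14 moved. Most of the alternative folds changed only the added constant, which cannot turn a ratio within a library. The absence of reversals is therefore no check for those folds. A level has no direction to reverse, and FPKM and rescaled TPM change its scale.

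The 505 of 17148 genes called between pools became 230 of 15373 at a summed count of 50 or more. Of the same 17148 genes, 155 were called with edgeR's exact test at an assumed coefficient of variation of 0.1. Without the minimum fold 6090 of them were called, and 3426 by intervals apart. Of the 8 genes, 0 were called in the first 2 of these settings and 2 in the others. Fewer genes were tested at the higher count minimum, and the looser rules call smaller differences by construction.

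The full-length share of Ntrk2, 11.0%, was 9.93% to 12.1% with either library left out, and 13.2% as a share of expected counts, an alternative chosen after seeing the data. That of Ntrk3, 62.3%, was 61.5% to 63.2% with either library left out, 60.7% in posterior mean form, 77.2% over full-length and truncated transcripts only, and 75.5% as a share of expected counts. In each of these the truncated form led for Ntrk2 and the full-length forms for Ntrk3.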
